A study of Mus musculus with 2 samples.

Results

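The heat shock chaperones are described here as 10 genes, Hspa1a, Hspa1b, Hspa8, Hsph1, Hsp90aa1, Hsp90ab1, Dnajb1, Dnaja1, Hspb1 and Bag3, taken by symbol from the 32285 genes of single-cell RNA sequencing tables from mouse lung. Each symbol was found on 1 row of each table. There were 2 libraries, 1 per group, from wild-type C57BL/6 mice injected through the tail vein with 100 µl of phosphate-buffered saline alone (control) or with 400000 B16-F10 cells in it, a mouse skin melanoma line labelled with a green dye, and the lungs of both groups were taken after 6 h. Per the labels 2 mice were used per treatment, while the study's methods give 3 pooled mice per sample, aged 8 to 10 weeks. Cells that stained for Pecam1 and not for Ptprc were sorted, which selects endothelial cells (ECs), and dyed melanoma cells were added to the B16-F10 library only. Lungs of both groups were digested for 1 h at 37 °C before sorting. With 1 library per group no difference was tested. Intervals are 95% intervals that cover counting error only, and a value is called higher or lower where its interval lies beyond 0. The genes were chosen with ratios between these same libraries known, so the ratios are given as a description.

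Chaperones bind unfolded or partly folded proteins and help them to reach or regain their shape. HSP70 proteins bind short exposed stretches in cycles of ATP, J proteins bring them their clients, nucleotide exchange factors release the clients, and HSP90 takes over clients that are nearly folded, many of them kinases and steroid receptors. Heat and other damage to proteins free the transcription factor HSF1 from these same chaperones, and HSF1 then binds heat shock elements, inverted repeats of the letters GAA, before the inducible genes. Some members are made at all times and others are mostly made on demand, and the inducible HSP70 genes are also known to be switched on while tissue is taken apart into single cells.

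The promoters of the inducible HSP70 pair and of Hspb1 are shown because the pair differed most between the libraries and Hspb1 differed most between vessel types. They are the 250 bases before the start of each gene on its own strand, from RefSeq on GRCm38.p6, and capitals mark each match of GAANNTTC, which is its own reverse complement and so is read on both strands at once. The windows are chr17:34972157-34972406 (minus strand) for Hspa1a, chr17:34959239-34959488 (minus strand) for Hspa1b and chr5:135887669-135887918 (plus strand) for Hspb1.
Hspa1a: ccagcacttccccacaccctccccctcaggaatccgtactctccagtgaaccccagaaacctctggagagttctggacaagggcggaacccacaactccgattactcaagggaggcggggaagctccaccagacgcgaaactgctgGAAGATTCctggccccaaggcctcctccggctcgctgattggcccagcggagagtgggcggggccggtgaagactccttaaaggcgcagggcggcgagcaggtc
Hspa1b: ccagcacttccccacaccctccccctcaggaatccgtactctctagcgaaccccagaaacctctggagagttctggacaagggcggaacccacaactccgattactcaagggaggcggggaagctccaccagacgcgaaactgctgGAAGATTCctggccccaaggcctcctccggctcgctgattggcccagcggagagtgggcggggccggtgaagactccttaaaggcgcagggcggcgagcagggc
Hspb1: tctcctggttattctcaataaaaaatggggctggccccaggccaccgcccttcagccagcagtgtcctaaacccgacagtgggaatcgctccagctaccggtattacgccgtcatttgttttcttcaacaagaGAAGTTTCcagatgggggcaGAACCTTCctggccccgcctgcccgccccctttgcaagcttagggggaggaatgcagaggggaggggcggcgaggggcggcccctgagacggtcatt
The pair's windows were identical at 247 of 250 positions (98.8%), and each held 1 match at positions -104 to -97, counted back from the start. Hspb1 held 2 matches, at -117 and at -97. Dnaja1 held 1 match, at -124 from 1 of its 3 listed starts. The windows of Hsph1, Dnajb1 and Bag3 held none, and the TTCNNGAA form, likewise its own reverse complement, was found for Hsph1 alone among the members listed, at -33 from its first start. Of all 32851 promoter windows of the same length, 6.69% held GAANNTTC and 7.17% held TTCNNGAA. A run of 3 units (GAANNTTCNNGAA, or TTCNNGAANNTTC on the other strand, which overlap both shorter motifs) was in 0.466% of the windows and in that of no member listed. Hsph1 had such a run, TTCTGGAAAGTTC, just after its start, at position 37 from the first start. The matches are letters in a window and not binding sites. Promoters of Hspa8, Hsp90aa1 and Hsp90ab1 were not used here.

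All 10 are protein-coding genes, and in GENCODE M21 (GRCm38) Hspa1a lies at chr17:34969190-34972156 and Hspa1b at chr17:34956436-34959238, both on the minus strand. Their transcripts were 85.5% identical over their length, and 51.8% identical over the last 400 bases, where reads of the 3' assay fall. A read that matches more than 1 gene is not counted. How many reads of the pair this removed was not measured, so their counts may miss reads, and their sum is given as well. Hspa8 and Hsp90ab1 have processed copies elsewhere in the genome, so their counts may also miss reads.

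The tables held 85794655 unique molecular identifiers (UMIs, counted RNA molecules) for control and 104978816 for B16-F10. After the limits of 1000 to 5000 genes and under 20% mitochondrial UMIs, and without called doublets, 7830 control and 7767 B16-F10 cells were kept, and 18 of them shared a barcode between the libraries. By fixed markers, 4861 control and 4464 B16-F10 cells were general capillary-like (gCap), 1456 and 975 aerocyte-like (aCap), 182 and 136 artery-like, 271 and 263 vein-like, and 57 and 51 lymphatic-like (LEC). The label endothelial held for these classes, with Pecam1 detected in at least 99.1% of gCap-like and aCap-like cells of each library. Clusters that fitted no single class held 10.2% of control and 17.3% of B16-F10 cells. The aCap-like class stood apart by library, since 1 of its 3 clusters held 176 control and 820 B16-F10 cells and the other two held 717 and 563 control cells against 91 and 64. The 8 melanoma markers summed to 1.48 CPM in control and 39.3 CPM in B16-F10 gCap-like cells, where CPM is UMIs per 1000000 UMIs of the class. In control gCap-like cells Mlana, Tyrp1 and Slc45a2 were at 0. Free RNA, estimated from genes that ECs lack, made up 1.97% of gCap-like UMIs in control and 3.15% in B16-F10, and its part in the ratios was not tested beyond the subtraction given with the limits.

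The members were present in every vessel class, and the classes differed most in Hspb1, a small heat shock protein that holds unfolded proteins and binds actin. In the control library Hspb1 was at 749 CPM in aCap-like cells, 259 in artery-like, 229 in vein-like, 194 in LEC-like and 63.3 in gCap-like cells, an 11.8-fold range. Artery and vein, and vein and LEC, had overlapping intervals. The B16-F10 library kept the same order, from 793 CPM in aCap-like to 60.8 CPM in gCap-like cells, so the 2 capillary classes were at opposite ends in both.

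Bag3, a nucleotide exchange factor that releases clients from HSP70 and hands them to autophagy, was also highest in aCap-like cells of both libraries, at 128 CPM in control against 68.3 in LEC-like, 61.9 in gCap-like, 50.2 in vein-like and 38.2 in artery-like cells. The control intervals of LEC and gCap, and of vein and artery, overlapped. The inducible pair was highest in control aCap-like cells too, with Hspa1b at 56.7 CPM there and 28.6, 25.6, 18.0 and 10.8 CPM in vein-like, LEC-like, artery-like and gCap-like cells. In the B16-F10 library the 4 classes other than gCap lay between 8.71 and 10.4 CPM with overlapping intervals and gCap-like cells were at 4.13 CPM, so aCap-like cells no longer led.

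The HSP90 genes and Hspa8 varied less between classes. Hsp90ab1, the HSP90 form made at all times, ranged 1.51-fold in control, from 1291 CPM in vein-like to 858 CPM in artery-like cells. Hsp90aa1, the more inducible form, ranged 1.49-fold, from 199 to 133 CPM between the same classes. Hspa8, the HSP70 made at all times, ranged 1.72-fold, from 869 CPM in vein-like to 505 CPM in artery-like cells. Dnaja1, a J protein of HSP70, stood at 565 and 562 CPM in aCap-like and vein-like cells and 284 CPM in LEC-like cells. Hsph1, the HSP110 that exchanges nucleotides on HSP70, was at 61.9 and 61.6 CPM in LEC-like and vein-like cells and between 18.0 and 23.3 CPM in the other classes.

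**Figure D1:**
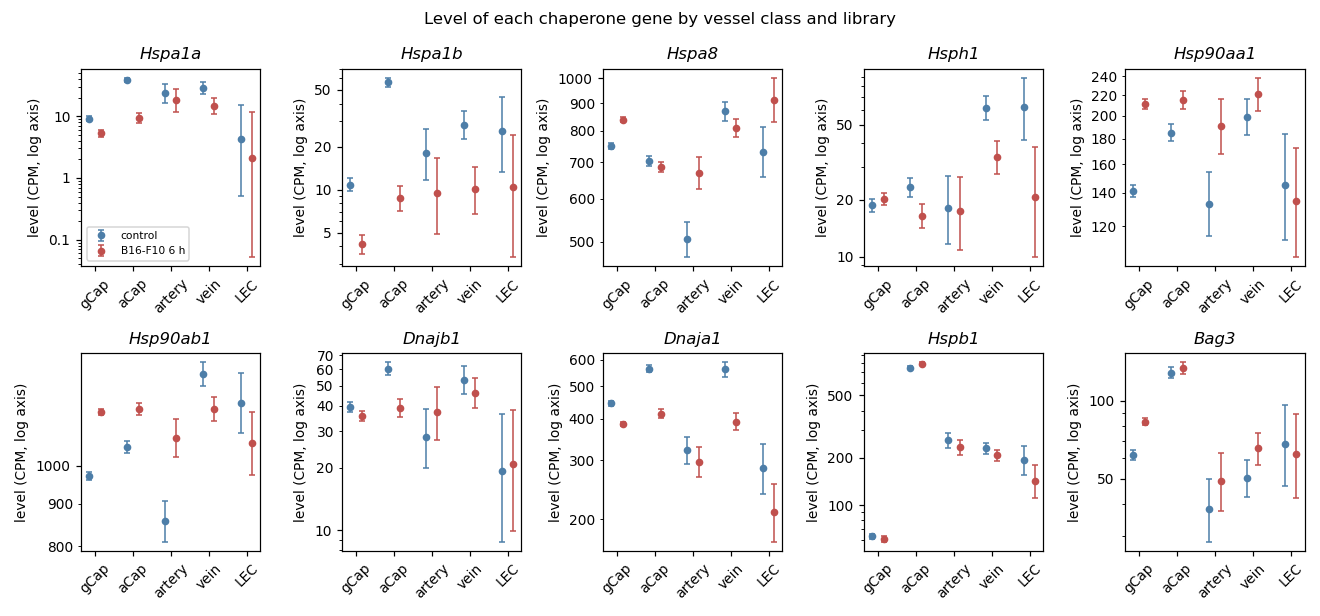
Level of each of the 10 genes in CPM (log axis, a separate range for each gene) in the 5 vessel classes, for the control (blue) and B16-F10 (red) libraries, with 95% intervals of counting error and 1 library per point. Hspb1 sits at 749 CPM in control aCap-like cells and 63.3 CPM in gCap-like cells, and Hspa1b in aCap-like cells stands at 56.7 CPM in control and 8.71 CPM in B16-F10.

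In gCap-like cells the members went in both directions between the libraries. The inducible HSP70 genes were lower in B16-F10 than in control, the HSP90 genes, Bag3 and Hspa8 were higher, and both J proteins were slightly lower. Of the 10 members, all of them measured (at least 50 UMIs over both libraries), 1 was higher by a log2 ratio of 0.5 or more, where 9.85% of the 13243 genes measured were, and 2 were lower by as much, where 12.5% of genes were. With 4 members higher (28.7% of genes) and 4 lower (34.9% of genes) beyond counting error, the median log2 ratio was 0.03 against -0.04 over all genes.

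Hspa1a and Hspa1b, the stress-inducible HSP70 genes, were scarce in gCap-like cells. Hspa1a had 334 UMIs (9.18 CPM) in control and 205 UMIs (5.26 CPM) in B16-F10, a log2 ratio of -0.80 (-1.06 to -0.55). Hspa1b had 394 UMIs (10.8 CPM) and 161 UMIs (4.13 CPM), a log2 ratio of -1.39 (-1.67 to -1.12). The pair together went from 20.01 to 9.38 CPM, a log2 ratio of -1.09 (-1.28 to -0.91). Free RNA would supply 1.04 of the 10.8 CPM of Hspa1b in control and 0.577 of the 4.13 CPM in B16-F10. In barcodes that hold at most 100 UMIs and mostly free RNA, the same genes were lower in B16-F10 as well, by log2 ratios of -0.90 for Hspa1a and -1.52 for Hspa1b, and the part of this in the difference was not tested.

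Hsp90aa1 was the member furthest up in gCap-like cells, from 141 CPM in control to 211 CPM in B16-F10, a log2 ratio of 0.58 (0.53 to 0.63). Melanoma-like cells of the B16-F10 library held 2603 CPM of it. Free RNA of all sources would supply 4.09 of the 141 CPM and 9.20 of the 211 CPM, and the part of melanoma RNA in the difference was not tested. Bag3 came next, from 61.9 to 83.2 CPM, a log2 ratio of 0.43 (0.35 to 0.50). Hsp90ab1 went from 972 to 1162 CPM (log2 ratio 0.26, 0.24 to 0.28). Hspa8 went from 750 to 839 CPM (log2 ratio 0.16, 0.14 to 0.18), so the HSP70 made at all times and the inducible pair went opposite ways.

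The J proteins Dnaja1 and Dnajb1 deliver unfolded clients to HSP70. Dnaja1 went from 445 to 385 CPM in gCap-like cells (log2 ratio -0.21, -0.24 to -0.18). Dnajb1, the J protein that HSF1 induces, went from 39.4 to 35.6 CPM (-0.15, -0.26 to -0.04), and with every cell thinned to 2000 UMIs its log2 ratio was 0.03, so its direction is not settled by these counts. Hsph1, at 18.7 and 20.2 CPM (0.11, -0.04 to 0.26), and Hspb1, at 63.3 and 60.8 CPM (-0.06, -0.14 to 0.03), did not differ beyond counting error over the whole class. Each was lower in some single clusters and higher in others, given below. Summed over the members, 0.251% of control and 0.281% of B16-F10 gCap-like UMIs came from the 10 genes, a log2 ratio of 0.16 (0.15 to 0.17).

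**Figure D2:**
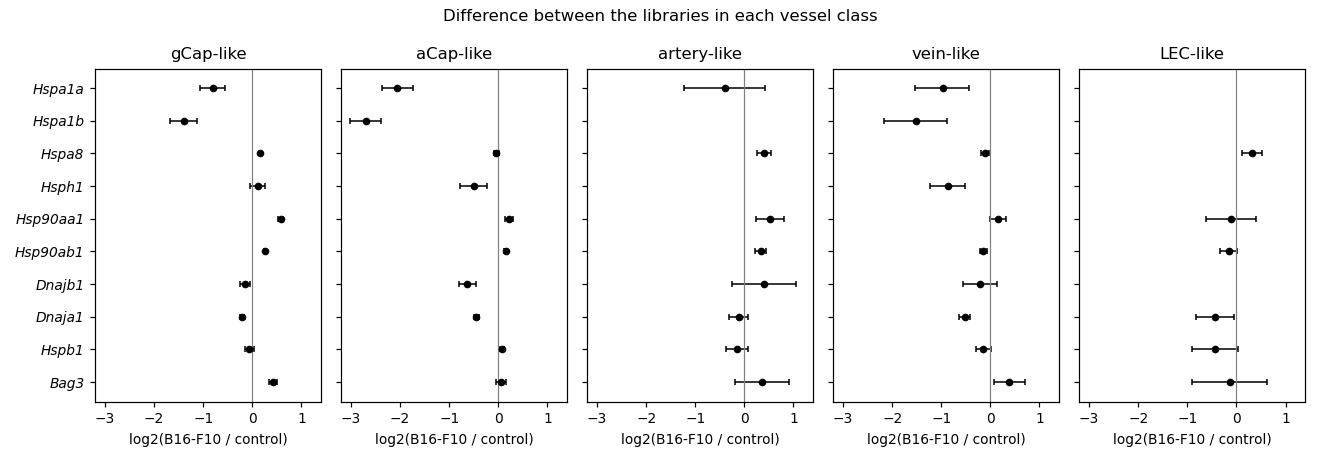
Log2 ratio of B16-F10 to control for each of the 10 genes in each vessel class, with 95% intervals of counting error, shown where the gene had at least 50 UMIs over both libraries. Hspa1a and Hspa1b lie left of 0 in gCap-like, aCap-like and vein-like cells, while Hsp90aa1 lies right of 0 in gCap-like, aCap-like and artery-like cells.

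In aCap-like cells, the thin capillary cells over which gas is exchanged, the inducible pair showed its widest gap. Hspa1a had 511 UMIs (38.8 CPM) in control and 102 UMIs (9.35 CPM) in B16-F10, a log2 ratio of -2.05 (-2.37 to -1.74). Hspa1b had 747 UMIs (56.7 CPM) and 95 UMIs (8.71 CPM), a log2 ratio of -2.70 (-3.03 to -2.39). Hspa1b was next to last, 11115 of the 11116 genes measured in this class when ranked from the most raised. The pair together went from 95.5 to 18.1 CPM.

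The difference lay in part of the aCap-like class. In the cluster with most of the B16-F10 aerocytes (176 control and 820 B16-F10 cells) the pair was at 17.4 CPM in control and 16.5 CPM in B16-F10, a log2 ratio of -0.08 (-0.61 to 0.50). In the cluster with most of the control aerocytes (717 and 91 cells) it was at 143 and 38.5 CPM, a log2 ratio of -1.89 (-2.42 to -1.40). The remaining cluster, of few genes (563 and 64 cells) held 114 control UMIs of the pair and 2 in B16-F10. How far the gap over the whole class follows from the clusters each library filled was not tested.

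The other members in aCap-like cells differed less. None was higher by 0.5 or more, where 9.29% of genes were, and 3 were lower by as much, the pair and Dnajb1, where 11.2% of genes were. Dnajb1 went from 60.3 to 39.0 CPM (log2 ratio -0.63, -0.80 to -0.46). Hsph1 went from 23.3 to 16.5 CPM (-0.50, -0.77 to -0.23). Dnaja1 went from 565 to 414 CPM (-0.45, -0.50 to -0.39). These were 3 of the 4 HSP70 partners among the members, and the fourth, Bag3, did not differ beyond counting error over the whole class. In the cluster with most of the B16-F10 aerocytes Dnaja1 was higher (0.15, 0.03 to 0.26). The intervals of Dnajb1 (0.13) and Hsph1 (0.35) included 0 there. In the cluster with most of the control aerocytes all 3 were lower, Dnaja1 at -0.57, Dnajb1 at -0.73 and Hsph1 at -0.99. In the cluster of few genes Dnaja1 was lower too (-0.93).

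Hsp90aa1 was higher in aCap-like cells, at 185 and 215 CPM (0.22, 0.13 to 0.30). Hsp90ab1 was at 1055 and 1171 CPM (0.15, 0.12 to 0.19) and Hspb1 at 749 and 793 CPM (0.08, 0.04 to 0.12). Without the cluster of few genes, a choice made after seeing the data, Hsp90aa1 was at 0.02, Hsp90ab1 turned to -0.07 and Hspb1 to -0.19. Both HSP90 genes were higher in the cluster with most of the B16-F10 aerocytes. Hsp90ab1 was at 0.31 (0.24 to 0.38) and Hsp90aa1 at 0.31 (0.15 to 0.48) there. In the other clusters of the class their intervals included 0, so neither was lower within a cluster beyond counting error. Over the whole class Hspa8, at 704 and 686 CPM, and Bag3, at 128 and 133 CPM, did not differ beyond counting error. In the cluster with most of the B16-F10 aerocytes Hspa8 (0.44, 0.34 to 0.53) and Hspb1 (0.45) were higher. Bag3 was lower there (-0.31, -0.48 to -0.13). In the cluster with most of the control aerocytes Hspa8 was lower (-0.19), and the intervals of Hspb1 and Bag3 included 0. In the cluster of few genes Hspb1 was lower (-1.07). The median over the 10 members was -0.24 against 0.01 over all genes, and it was -0.05 at 2000 UMIs per cell and -0.43 without the cluster of few genes.

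**Figure D3:**
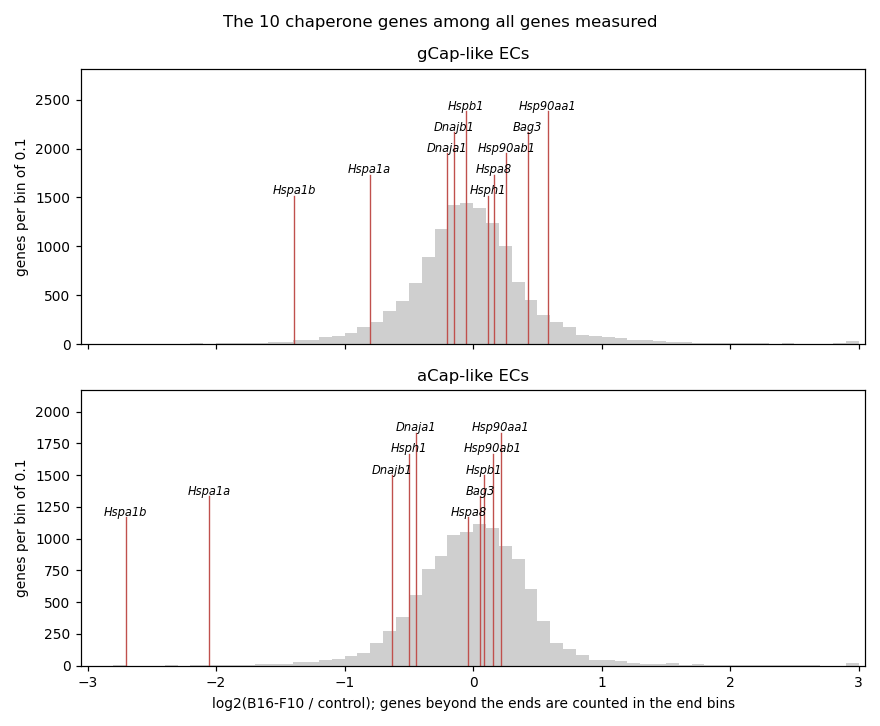
Number of genes in each bin of 0.1 of the log2 ratio of B16-F10 to control in gCap-like (top) and aCap-like (bottom) cells, over all genes with at least 50 UMIs, with a red line at each of the 10 genes. Most members lie within the bulk of genes, and Hspa1a and Hspa1b lie in the left tail, at -2.05 and -2.70 in aCap-like cells.

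Vein-like cells, from vessels that drain the capillaries, had 6 members lower and 1 higher beyond counting error, where 14.4% and 11.7% of genes were. Hspa1a had 84 UMIs (28.9 CPM) in control and 44 UMIs (14.7 CPM) in B16-F10, a log2 ratio of -0.97 (-1.53 to -0.43). Hspa1b had 83 UMIs (28.6 CPM) and 30 UMIs (10.0 CPM), a log2 ratio of -1.51 (-2.16 to -0.89). Hsph1 went from 61.6 to 33.8 CPM (-0.87, -1.23 to -0.51) and Dnaja1 from 562 to 392 CPM (-0.52, -0.63 to -0.41). These were the 4 members lower by 0.5 or more, where 8.42% of genes were.

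None of the members was higher by 0.5 or more in vein-like cells, where 7.11% of genes were. Hsp90ab1, at 1291 and 1171 CPM (-0.14, -0.21 to -0.07), and Hspa8, at 869 and 810.5 CPM (-0.10, -0.18 to -0.02), were lower here although both were higher in gCap-like cells. Bag3 was the exception, higher at 50.2 and 65.5 CPM (0.38, 0.07 to 0.70), though at 2000 UMIs per cell it was at -0.18. The median over the members was -0.18 against -0.03 over all genes. Free RNA was estimated at 0.944% of control and 7.27% of B16-F10 vein-like UMIs, and with it subtracted the median was -0.20. The estimate rests partly on haemoglobin genes, and 8 red-cell markers went from 506 to 3700 CPM in these cells. The 8 epithelial markers were at 155 and 141 CPM. Macrophage and neutrophil markers were higher in B16-F10, at no more than 25.4 CPM. The estimate may thus not hold for free RNA of all sources, which was not tested.

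In artery-like cells, from vessels that feed the capillaries, 8 of the 10 members were measured. Of these 3 were higher beyond counting error, where 15.3% of genes were, and none was lower, where 13.4% were. Hsp90aa1 went from 133 to 191 CPM (log2 ratio 0.52, 0.24 to 0.80), and it was the 1 member higher by 0.5 or more, where 13% of genes were. Hspa8 went from 505 to 669 CPM (0.41, 0.26 to 0.55) and Hsp90ab1 from 858 to 1082 CPM (0.34, 0.22 to 0.45). Dnaja1 was at 322 and 297 CPM and Hspb1 at 259 and 233 CPM, and neither differed beyond counting error. None was lower by 0.5 or more, where 11.1% of genes were. The inducible pair was at 41.8 and 27.6 CPM (-0.60, -1.25 to 0.03), on 58 and 35 UMIs, which does not reach beyond counting error. The median over the measured members was 0.35 against 0.02 over all genes, and -0.02 with cells clustered at doubled resolution.

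In LEC-like cells, the lymphatic ECs, 6 members were measured and counts were small. Hspa8 was higher, at 733 and 914 CPM (0.32, 0.11 to 0.53), and Dnaja1 was lower, at 284 and 209.8 CPM (-0.44, -0.82 to -0.05), against 9.89% of genes higher and 10.3% lower beyond counting error. None reached 0.5 in either direction, where 11.7% of genes were higher and 10.9% lower by as much. The pair had 14 UMIs in 57 control cells and 6 UMIs in 51 B16-F10 cells. Hsph1, not measured here, had 29 and 10 UMIs.

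Across classes, the sum of the inducible pair was lower beyond counting error in gCap-like, aCap-like and vein-like cells, and in artery-like and LEC-like cells its interval included 0. Over whole classes Dnaja1 was lower in 4 of the 5, with artery-like cells (-0.12, -0.32 to 0.08) the exception. Within the aCap-like class it was higher in the cluster with most of the B16-F10 aerocytes (0.15, 0.03 to 0.26). Hsp90aa1 was higher in gCap-like, aCap-like and artery-like cells. Its intervals included 0 in vein-like (0.15, -0.01 to 0.31) and LEC-like cells (-0.10, -0.62 to 0.41). Its aCap-like ratio was 0.02 without the cluster of few genes, and its vein-like ratio was 0.62 at 2000 UMIs per cell. The classes come from the same 2 libraries and so do not repeat one another.

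Within gCap-like cells the members did not go the same way in every cluster. The pair was lower in 5 of the 7 clusters, with log2 ratios from -2.55 to -1.03, and its interval included 0 in the other two, at 44 and 53 UMIs over both libraries. Hsp90aa1 was higher in 6 of 7 clusters, from 0.27 to 1.03, and the 1 exception was at 0.10 (-0.04 to 0.23). Dnaja1 was lower in 5 of 7 clusters and higher in the others, at 0.35 (0.21 to 0.49) and 0.23 (0.09 to 0.37). Hsph1 was higher in these same clusters, at 0.69 (0.12 to 1.27) and 1.09 (0.55 to 1.62), and so was Hspb1, at 0.66 and 0.46. Elsewhere Hsph1 was lower at -0.50 (-0.86 to -0.14) and -0.81 (-1.22 to -0.41), and its interval included 0 in the remaining clusters. A cluster with few genes per cell (743 control and 557 B16-F10 cells) stood apart, with a median of 0.67 over 8 measured members against 0.01 over all genes, and 7 of them higher by 0.5 or more, where 21.8% of genes in the cluster were. Its cells held a median of 4153 UMIs in control and 7045 in B16-F10, and the members summed to 995 CPM in control and 1697 CPM in B16-F10. Without it, a choice made after seeing the data, the gCap-like median was -0.01 and Hsp90aa1 stayed the 1 member at 0.5 or more.

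The cluster that B16-F10 cells filled most (59 control and 981 B16-F10 cells, led by Lalba, Tmem252 and Adamts9) held the most members of any gCap-like cluster, 3641 CPM in B16-F10. Hsp90aa1 stood there at 241 CPM in control and 347 CPM in B16-F10 and the pair at 80.4 and 13.7 CPM. Hspb1 was lower in it, from 114 to 65.5 CPM (-0.80, -1.21 to -0.36), which it was not over the whole class.

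**Figure D4:**
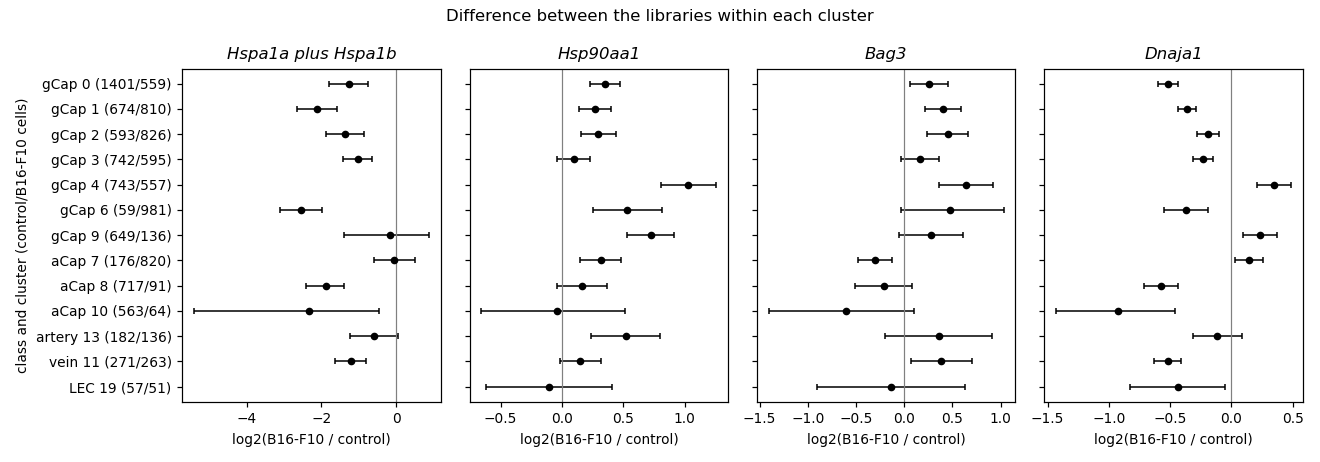
Log2 ratio of B16-F10 to control for the summed inducible HSP70 pair, Hsp90aa1, Bag3 and Dnaja1 within each cluster, with 95% intervals of counting error and the number of control and B16-F10 cells in brackets, shown where the gene had at least 50 UMIs. The pair lies left of 0 in most clusters and at -0.08 in aCap cluster 7, and cluster 4 of gCap-like cells lies furthest right for Hsp90aa1, at 1.03.

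The pair was unevenly spread over cells. A UMI of it was found in 11.3% of control and 6.94% of B16-F10 gCap-like cells, and in 30.4% and 13.2% of aCap-like cells. As a background from lymphoid-like cells, 1 of 16 control cells had one, 6.25% (0.158 to 30.2%), and 0 of 67 in B16-F10, 0% (0 to 5.36%). Their median depths were 8519 and 7282 UMIs, against 7312 and 8442 in gCap-like cells. Of other cells in B16-F10, 37 macrophage-like or monocyte-like cells held Hspa1a at 67.8 and Hspa1b at 14.3 CPM, and 19 neutrophil-like cells held neither. The control background rests on too few cells to be set against the control share in gCap-like cells, whose 11.3% lies within its interval. Cells with 3 or more UMIs of the pair were 11.0% (9.43 to 12.7%) of control and 1.33% (0.712 to 2.27%) of B16-F10 aCap-like cells. These cells held 70.7% of the pair's UMIs in control aerocytes and 28.9% in B16-F10 aerocytes. In vein-like cells such cells were 8.49% and 1.90%, and in gCap-like cells 0.658% and 0.179%, so in each of these classes strongly positive cells were fewer in B16-F10.

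Thinned to 2000 UMIs, which left out 62 control and 30 B16-F10 gCap-like cells, shares of cells with a UMI were compared at equal depth. Hspa1b was found in 2.38% of control and 0.767% of B16-F10 cells and Hspa1a in 1.63% and 0.992%. Hsp90aa1 was found in 22.2% and 30.3%, Bag3 in 11.5% and 14.7%, and Hsp90ab1 in 76.6% and 85.0%. Dnaja1 was found in 52.7% and 49.3%, and Hspb1 in 10.3% and 10.1%. Unthinned, Dnaja1 was in 84.3% and 87.3% and Hspb1 in 28.2% and 31.9%, the opposite order, so no order is read from the unthinned shares of this pair. Unthinned shares of Hsp90aa1 were 53.5% and 69.3%. At such low counts a share follows from the mean, so more cells with a gene and more RNA per cell cannot be told apart.

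Summed per thinned gCap-like cell, the 10 genes had a median of 4 UMIs in control and 5 in B16-F10, with a 95th percentile of 11 in both. Above 11 UMIs lay 3.52% (3.02 to 4.08%) of control and 3.70% (3.16 to 4.30%) of B16-F10 cells. This sum is carried by the abundant members. Hsp90ab1, Hspa8 and Hsp90aa1, all higher in B16-F10, were then left out, and Dnaja1, lower in B16-F10, was kept. Dnaja1 held a mean of 0.861 UMIs per thinned control cell, more than Hsp90aa1 at 0.272. Above the control percentile of the remaining sum, 4 UMIs, lay 2.52% (2.096 to 3.005%) of control and 1.51% (1.17 to 1.92%) of B16-F10 cells. The share for these 7 members was lower in B16-F10, but the 3 left out were known to be higher there. The lower share was thus partly set by that choice and is no separate result. How far this follows Dnaja1 alone was not tested.

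The study names a reactive capillary state, rCap, and 44 of its markers, none of them a member, were summed per thinned cell as a score. These markers were chosen partly on these libraries. Above a score of 34, the 95th percentile of control, were 226 control and 2386 B16-F10 gCap-like cells. Within the B16-F10 library the members were higher in these cells than in the rest, with a median log2 ratio of 0.41 over the 8 measured members against -0.03 over all genes. All 8 were higher beyond counting error, where 15.1% of genes were, and genes of many UMIs pass this limit more easily. Hsp90aa1 was at 152 CPM in the rest and 244 CPM in the high-scoring cells (0.69, 0.54 to 0.83), and it was the 1 measured member at 0.5 or more, where 7.1% of genes were. Hspa1a (19 and 26 UMIs) and Hspa1b (13 and 23 UMIs) had too few UMIs to be measured. Bag3 was at 67.9 and 95.6 CPM (0.49, 0.28 to 0.71). Within the control library the median over the members was 0.26 against -0.02 over all genes, and 4 members, Hspa8, Hsph1, Hsp90ab1 and Dnaja1, were higher beyond counting error, where 6.8% of genes were. There Hspa1a, Hspa1b and Hsph1 were at 0.5 or more, where 11.5% of genes were, and the intervals of the pair included 0.

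Across the score the summed members went from 2212 CPM (1978 to 2467) in the lowest B16-F10 bin, scores up to 14, to 3339 CPM (3268 to 3412) in the highest, scores of 50 or more. In control cells the lowest bin held 2020.2 CPM and the bins above it between 2382 and 3016 CPM. Among cells scoring 34 or less in both libraries, the median over the members was -0.19 (B16-F10 to control), with Hspa1b at -1.90 (-2.85 to -1.06), Dnaja1 at -0.29 (-0.38 to -0.20) and Hsp90aa1 at 0.16 (0.02 to 0.30). The pair was thus lower without the high-scoring cells, and the gap of Hsp90aa1 was smaller than in the whole class.

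Correlations between the 10 genes across cells were weak. Over 45 pairs of members in thinned gCap-like cells, Pearson r had a median of 0.03 over 4799 control cells and 0.02 over 4434 B16-F10 cells, and the highest, 0.23 and 0.17, was between Hspa8 and Hsp90ab1. In aCap-like cells the median was 0.12 and the highest 0.38 over 1439 control cells, and 0.03 and 0.14 over 969 B16-F10 cells. The genes most like the members' sum, by the lower r of the libraries among 5849 genes, were Actb (0.32), Ifitm3 (0.28), Tpt1 (0.26), Eef1a1 (0.25), Rps29, Ly6a, H3f3b, Rpl41, Rps2 and Rpl13 (0.22). These points share a library and a depth, and r in sparse counts is weak, so the values describe the cells only. Hsf1 itself was at -0.04 in control and 0.01 in B16-F10.

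Of the other genes of the system, 118 in 11 lists were followed, and the folding machines of newly made proteins were higher more evenly than the members. All 8 subunits of TRiC/CCT, the barrel that folds actin and tubulin, were higher in gCap-like cells, with a median of 0.33 and Cct3 at 75.5 and 109 CPM (0.53). All 6 measured prefoldin subunits, which pass actin and tubulin to TRiC, were higher, with a median of 0.24. In aCap-like cells all 8 and all 6 were higher too, with medians of 0.32 and 0.33, and in vein-like cells 1 of 8 was higher and 1 of 6 lower, where 11.7% and 14.4% of genes were. Over all genes 28.7% were higher and 34.9% lower in gCap-like cells, and 27.7% were higher and 27.7% lower in aCap-like cells. The counts of the lists that follow are for gCap-like cells and are to be read against those shares.

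Of 9 mitochondrial chaperones 7 were higher and 1 lower in gCap-like cells, with a median of 0.23. Hspe1 and Hspd1, the pair that forms the mitochondrial folding chamber, went from 77.5 to 126 CPM (0.70) and from 83.6 to 114 CPM (0.44). Hspa9, the mitochondrial HSP70, went from 53.9 to 80.4 CPM (0.58), and Grpel2 was lower (-0.28). Of 15 HSP90 co-chaperones 9 were higher and 4 lower, with a median of 0.19. Fkbp5, which is switched on by glucocorticoids, stood out, from 26.1 to 67.2 CPM (1.37, 1.26 to 1.48) in gCap-like cells, and was at 1.46 in vein-like and 0.20 (-0.17 to 0.57) in aCap-like cells. Stip1, which joins HSP70 to HSP90, was at 0.31 in gCap-like and -0.60 in vein-like cells.

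Of 7 other measured members of the HSP70 and HSP110 family 1 was higher and 3 lower in gCap-like cells, with a median of -0.07. Hspa4, an HSP110, went from 112 to 130.3 CPM (0.21), while its relative Hspa4l, known as a heat-inducible form, went from 38.7 to 27.2 CPM (-0.51) and was at -0.71 in aCap-like cells. Of 14 J proteins 4 were higher and 3 lower (median -0.03), no more than the shares over all genes, with Dnajc2 at 0.44 and Dnajb4 at -0.43. Of 8 BAG and other HSP70 partners 6 were higher and none lower (median 0.11), with Hspbp1 at 0.56 and the ligase Stub1 at 0.39. Among 4 measured small heat shock proteins Cryab went from 7.81 to 13.4 CPM (0.77) and Hspb8 from 23.4 to 26.6 CPM (0.18).

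Of 7 measured genes of HSF and its regulators 4 were higher and 1 lower (median 0.10). Hsf1, the main switch of the response, went from 22.7 to 25.3 CPM (0.16, 0.02 to 0.30), and Hsf2 from 19.1 to 13.4 CPM (-0.52, -0.68 to -0.35). Of 17 ER chaperones 10 were higher and 3 lower (median 0.14). Hspa5, the HSP70 of the ER, went from 153 to 202 CPM (0.40), Creld2 was at 0.62, and Dnajb9 was lower, from 66.5 to 44.4 CPM (-0.58). ER genes thus went both ways with more higher than lower, while the members had 4 higher and 4 lower.

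Immediate early genes, which answer signals within minutes and are also known to be switched on during tissue digestion, differed far more. All 15 measured were higher in gCap-like cells, with a median of 1.87, and 13 were at 0.5 or more. Egr1 went from 10.4 to 140.5 CPM (3.76), Fos from 60.0 to 282 CPM (2.23) and Atf3 from 10.2 to 75.3 CPM (2.89). Jun went from 1381 to 1811 CPM (0.39). Medians were 1.63 in aCap-like, 1.30 in vein-like, 0.61 in LEC-like and 0.22 in artery-like cells. Immediate early genes and the inducible HSP70 pair thus went opposite ways in gCap-like, aCap-like and vein-like cells.

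**Figure D5:**
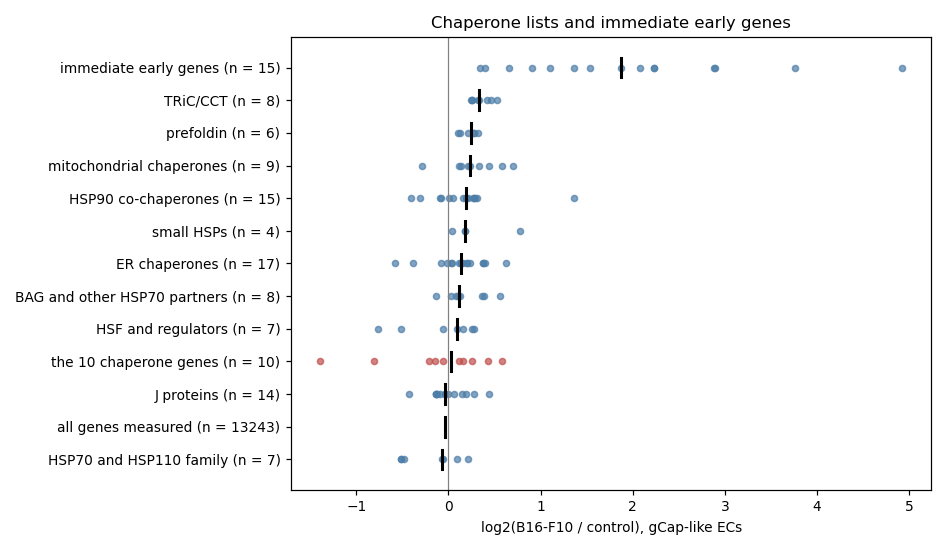
Log2 ratio of B16-F10 to control in gCap-like cells for each measured gene of 11 lists (blue) and for the 10 chaperone genes (red), with the median of each list as a black bar and that of all genes for reference. Immediate early genes have a median of 1.87 and TRiC/CCT of 0.33, and the 10 chaperone genes straddle 0.

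Outside the named vessel classes, the 77 melanoma-like cells of the B16-F10 library (control had 1) held the most, with 9956 CPM from the 10 genes, of which Hsp90ab1 was 3459, Hsp90aa1 2603 and Hspa8 2566 CPM. They held Hspa1b at 193 CPM and Hspa1a at 1.22 CPM. A cluster of ECs led by Csf2, Sox9 and Prnd (8 control and 300 B16-F10 cells), which fitted no vessel class, held 4841 CPM in B16-F10, with Hsp90aa1 at 730 CPM. Its few control cells held 52 UMIs of the inducible pair, 649 CPM, against 26 UMIs and 8.78 CPM in B16-F10, so 8 cells carried more of the pair than 300. In clusters of mixed markers Hspa1b was at 31.1 CPM in control and 5.76 CPM in B16-F10, in the same direction as in the named classes.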

How the data were processed

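The deposited tables hold raw UMI counts per gene and barcode for all barcodes, not normalized, made by the authors with Cell Ranger on mm10. The submitters' processing notes name Cell Ranger 7.2.0 and Seurat 4.4.0, and the study's methods name another Cell Ranger version. Cells were kept with 1000 to 5000 genes and under 20% mitochondrial UMIs, and doublets were called with Scrublet at 0.8% per 1000 cells and removed. Cells were clustered with the Leiden method (leidenalg 0.10.2, 3000 variable genes less the members and listed response genes, which left 2940, 30 components, 20 neighbours, resolution 0.8) and classed by 8 markers per class. A vessel class needed 2 markers more than the next, a rule set after a first clustering was seen. The members and all lists were chosen with earlier results of these data known.

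Counts were summed per library and class and given as UMIs per 1000000 (CPM). Ratios carry exact conditional binomial intervals and levels exact Poisson or Clopper-Pearson intervals (95%), which cover counting error only. A gene was measured in a class with 50 UMIs or more over both libraries. Named genes are all members and, of each list, the up to 2 highest and 2 lowest ratios in gCap-like cells plus a few fixed ones (Hsf1, Hspa5, Hspd1, Serpinh1, Fos, Atf3). For most alike genes, those with at least 0.05 UMIs per thinned cell in each library were ranked. Free RNA was estimated from 12 lung epithelial, blood and myeloid genes in barcodes of at most 100 UMIs. Ratio and thinning code were tested on simulated data.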

Additional observations from a re-analysis of the deposited data

Results flagged for a closer look

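Cryab, a small heat shock protein of the lens and muscle that is outside the 10 genes, had a log2 ratio of B16-F10 to control of 0.77 in gCap-like cells and -0.55 in vein-like cells, opposite ways in the only library of each group, and the difference was not tested. Dusp1, a phosphatase among the immediate early genes, had 0.61 in LEC-like and -0.57 in artery-like cells, and this difference was not tested either.

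Barcodes outside the limits on cells also held the 10 genes above the control level. In barcodes of at most 100 UMIs the summed members were at 3317 CPM in B16-F10 and 3136 CPM in control. With over 100 UMIs and under 300 genes they were at 3425 and 2458 CPM, with 300 to under 1000 genes at 3347 and 2737 CPM, and with over 5000 genes at 3790 and 3297 CPM. Hspa1a and Hspa1b were lower in B16-F10 in all 4 of these sets of barcodes, with log2 ratios from -3.16 to -0.86, and Hsp90aa1 was higher in all 4, from 0.50 to 1.26.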

How the results depend on the processing

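No paired analysis was possible because the control and B16-F10 groups are 1 library apiece. The gCap-like median of 0.03 lay between -0.01 and 0.07 under all alternatives but that of summing all ECs, which gave -0.11. The aCap-like median of -0.24 was -0.047 at 2000 UMIs per cell, -0.10 with every cell weighted equally and -0.43 without clusters of under 2500 genes (an alternative chosen after seeing the data). The LEC-like median of -0.15 was -1.18 in cells without markers of other types, which left 5 and 2 cells and 1 measured member. The number of members at 0.5 or more in gCap-like cells, 1, was 2 in cells without other markers, 2 at a limit of 0.3 and 0 at a limit of 1. The share of B16-F10 cells above the control percentile, 3.70%, was 5.34% at 4000 UMIs, 0.880% at the 99th percentile and 1.51% without Hsp90ab1, Hspa8 and Hsp90aa1, where control had 4.40%, 0.959% and 2.52%.

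Of single members, 4 values with an interval beyond 0 changed sign, namely Dnajb1 in gCap-like cells (0.032) and Bag3 in vein-like cells (-0.18) at 2000 UMIs per cell, and Hsp90ab1 (-0.067) and Hspb1 (-0.19) in aCap-like cells without clusters of under 2500 genes. Hspa1a and Hspa1b stayed between -1.60 and -0.74 in gCap-like cells, or down to -2.13 with all ECs summed, and between -2.96 and -1.72 in aCap-like cells. Leaving out clusters below 2000 genes or 4000 UMIs removed no vessel cells. The causes of these changes were not tested. With 1 library per group, differences between mice, injections or preparations cannot be told apart from the effect of the melanoma cells.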
